A study of Mus musculus with 4 samples.

Results

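Mitosis genes were read in 4 mouse hearts 1 week after transverse aortic constriction (TAC), in which the aorta is narrowed so that the left ventricle pumps against high pressure. One array came from a wildtype heart and 3 from hearts labelled MAFbx KO, and every heart used here had TAC. MAFbx, or atrogin-1, is the muscle F-box protein encoded by Fbxo32, the substrate-binding part of a ubiquitin ligase. The labels give neither strain, age, sex nor the deleted part of the gene, and they do not say outright that the numbered hearts are separate animals, so any p measures the spread between these samples only. The comparison asks how MAFbx knockout hearts differ from a wild type heart 1 week after TAC. No heart without TAC was among them, so a changed response to pressure overload cannot be told apart from a difference present before TAC. The list names 37 mitotic cyclins, kinases, checkpoint, kinetochore, spindle, cytokinesis and condensin genes. A member was taken from the probe set whose only symbol in the array annotation is its own, and from the one with the highest 4-array mean where there were several. In this way 36 members were found among 19938 genes, Ccnb1 being the one without such a probe set. Of these, 35 passed the filter on dim genes (a 4-array mean of at least 4.10 on the log2 scale), which kept 16708 genes. Bub1 did not pass, and its values are given without a fit.

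Mitosis divides the duplicated chromosomes between daughter cells. Cyclin A and cyclin B with the kinase Cdk1 drive entry, Plk1 and the Aurora kinases build the spindle, the kinetochore ties chromosomes to it, and the spindle checkpoint holds back Cdc20 until all are attached. Most of these genes are transcribed late in the cell cycle and are nearly silent in resting cells. Adult cardiomyocytes rarely divide, and in the pressure-loaded heart the dividing cells are mostly fibroblasts, endothelial cells and leukocytes.

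The values are log2 levels normalised by RMA, and a difference of 1 is a 2-fold difference. Array medians of the genes tested ran from 6.57 to 6.62. Fbxo32 read 7.54 in wild type 1, then 5.65, 5.61 and 5.56 in knockouts 1, 2 and 3, lower on every array labelled knockout. Whether its probes lie in the deleted part was not analysed here. The 10 cardiomyocyte markers, among them Myh6 and Tnnt2, all passed the filter. The log2 of their summed linear levels was 16.3 in the wild type heart and 16.3 to 16.4 in the knockout hearts. Xist read 4.13 in wild type 1, then 9.18, 9.52 and 3.20 in knockouts 1, 2 and 3, and the Y-linked Eif2s3y read 8.57, 3.31, 3.64 and 8.49 in the same order. By these transcripts wild type 1 and knockout 3 stand on one side and knockouts 1 and 2 on the other. The members divide the arrays in the same way, so the sex-linked difference cannot be told apart from the differences among knockout hearts described below. The same holds for the genotype differences, since the only wild type array stands apart from knockouts 1 and 2. Without knockout 3, the wild type array and the knockout arrays stand on opposite sides.

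The mitosis genes were low in knockouts 1 and 2 and near the wild type level in knockout 3. The median difference from the wild type array over the 35 members tested was -1.09 in knockout 1, -0.95 in knockout 2 and 0.06 in knockout 3, against 0.01, 0.00 and 0.00 over all genes tested. Knockout 1 read below wild type in 33 members and knockout 2 in 34, against 8031 and 8332 of all 16708 genes. Knockout 3 read below it in 14, above it in 20 and equal in 1, Kif20a. The counts over all genes were 8297 below, 8057 above and 354 equal. No member came within 0.25 of the wild type level in knockout 1 and only Cdc20 and Cenpf did so in knockout 2. The shares of all genes that came that close were not counted for knockouts 1 and 2, so these counts cannot be read against a background. In knockout 3, 26 of 35 members came that close, near the share of all genes, 11688 of 16708. Both wild type 1 and knockout 3 read above both other arrays in 33 members, an order held by 21.5% of all genes. The exceptions were Cenpa and Cenpf. In bulk heart RNA, fewer dividing cells and less of these transcripts per cell cannot be told apart.

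**Figure D1:**
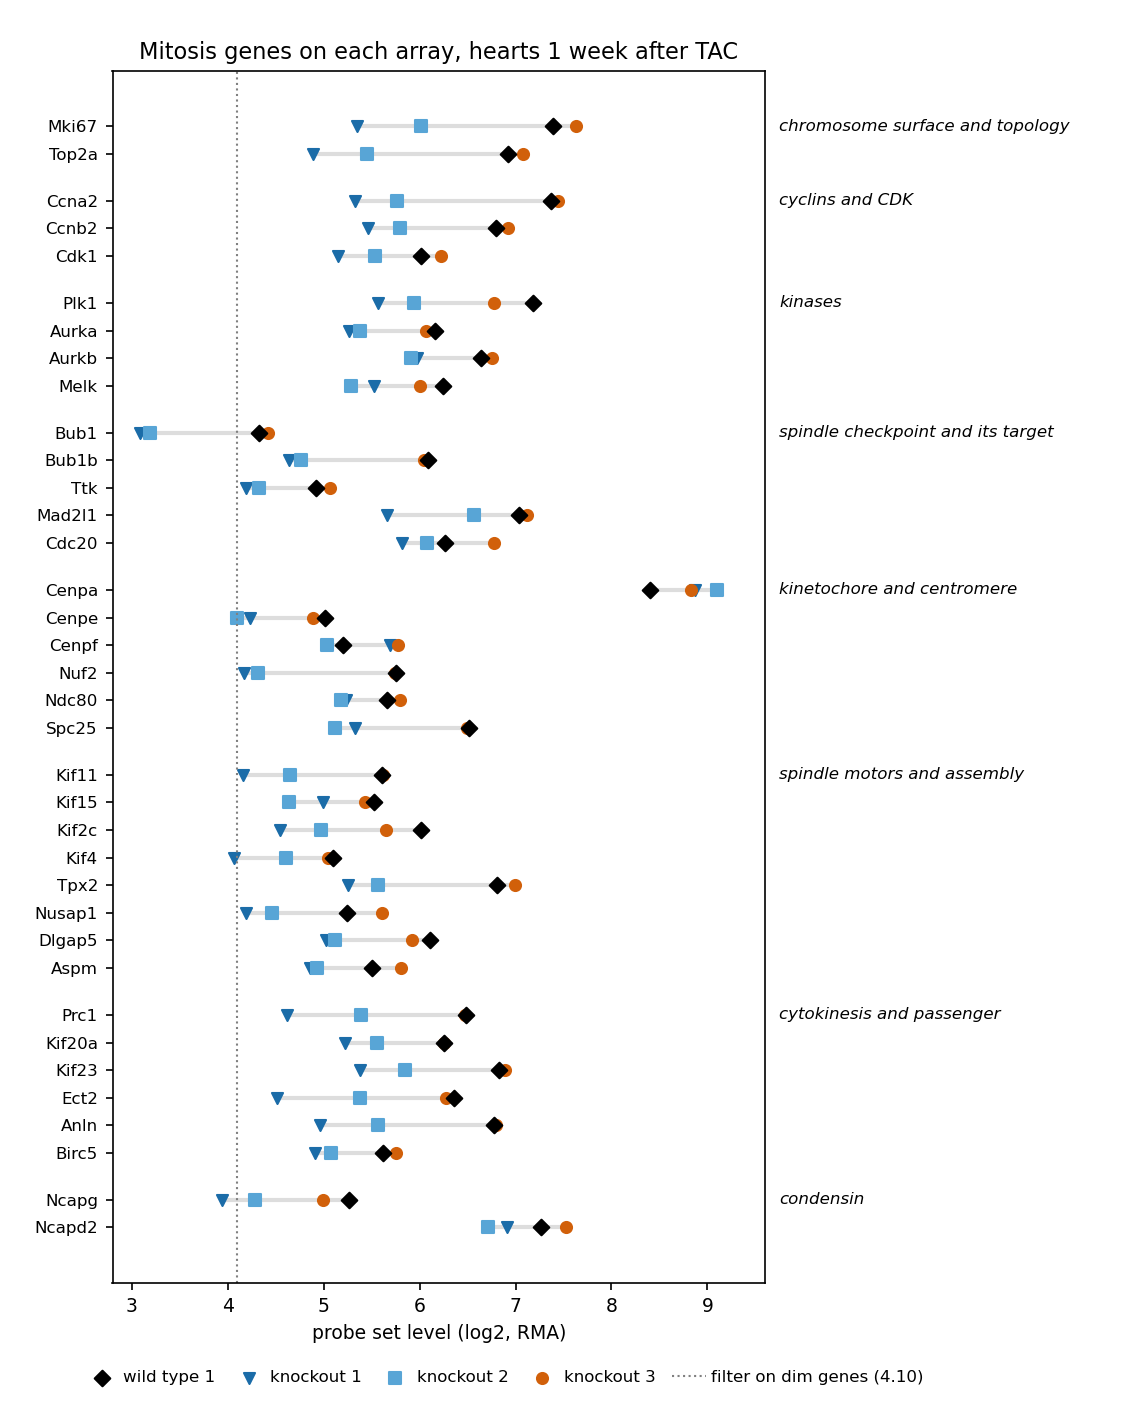
Level of the 36 members on each array (x axis, log2 RMA value), grouped by role, with the wild type heart as a black diamond and the 3 knockout hearts in colour. Levels are compared along a row only. Knockouts 1 and 2 lie left of wild type 1 and knockout 3 in all rows but those of Cenpa and Cenpf.

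Over the genotype comparison as a whole, 0 of 35 members passed the limma test (adjusted p under 0.05 over all genes, two-sided), and of all genes 0.00599% were called lower and 0% higher. At an unadjusted p under 0.05 there were 3 members, Plk1 and Kif2c lower and Cenpa higher, where the background was 3.87% of genes lower and 1.72% higher. The median log2 fold change (knockout minus wild type) over members was -0.63, against 0.00 over all genes tested. The fold change was negative in 33 of 35 members and in 8238 of the 16708 genes tested. All 3 knockout arrays lay below the wild type array in 14 members, where the background was 24.2%. All 3 lay above it in 1 member, Cenpa (background 24.2%). Knockout 3 decides these values: without it, both remaining knockout arrays lay below wild type in 33 of 35 members (background 34.9%) and the median was -0.93, still with 0 members called. With 1 wild type array the fit takes all its spread from the knockout arrays, and an exact permutation of 1 array against 3 cannot give a p under 0.25.

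The spread between knockout hearts was wide for nearly every member. The median SD over the 3 knockout arrays was 0.54 for members and 0.16 for all genes tested, and 32 of 35 members were among the 5% of genes with the largest SD. The 3 outside it were Melk, Ndc80 and Cenpa. The knockout arrays spanned at least 1, a 2-fold range, in 20 members (57.1%), against a background of 1.87%. Knockout 3 was the highest knockout array in 34 members, the exception being Cenpa, against 5929 of all 16708 genes. The lowest was knockout 1 in 26 members (5091 of all genes) and knockout 2 in 8 (5273 of all genes). Without knockout 3 the median SD was 0.24 and 0 members spanned that range (background 0.263%). Without knockout 1 it was 12 members (background 0.916%).

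**Figure D2:**
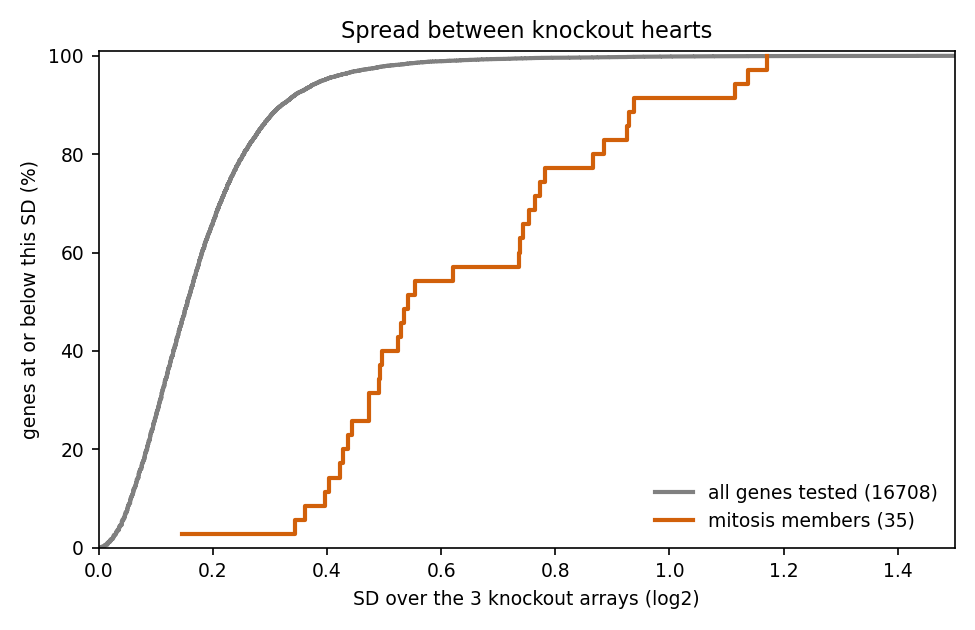
Cumulative share of genes (y axis, %) by SD over the 3 knockout arrays (x axis, log2), for all genes tested (grey) and for the 35 mitosis genes tested (orange). The orange curve lies to the right, with a median of 0.54 against 0.16, and 6 genes with an SD over 1.5 lie off the axis.

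The widest spreads belonged to the chromosome proteins and cyclin A2. Mki67 encodes Ki-67, the proliferation marker that coats mitotic chromosomes, and it read 7.39 in wild type 1, then 5.35, 6.02 and 7.63 in knockouts 1, 2 and 3. Top2a, the topoisomerase that untangles sister DNA, read 6.92, 4.89, 5.45 and 7.08. Ccna2, the cyclin of S phase and early mitosis, read 7.37, 5.33, 5.76 and 7.44. In all of them knockout 3 was the highest array and knockout 1 the lowest, so the knockout values lay on both sides of the wild type value. Between knockouts 1 and 3 the level of Mki67 differed 4.86-fold, that of Top2a 4.56-fold and that of Ccna2 4.32-fold. Their log2 fold changes over the genotypes were -1.06 (SE 0.74), -1.11 (SE 0.72) and -1.19 (SE 0.71), with limma adjusted p from 0.935 to 0.946. Without knockout 3 they were -1.71, -1.75 and -1.83, and without knockout 1 they were -0.57, -0.66 and -0.77, in the same gene order. Another probe set of Top2a, at 1.79 to 2.39 and below the filter, did not show the order: wild type 1 read highest and knockout 2 lowest.

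The other members of the cyclin-Cdk group followed with smaller distances. Ccnb2, a B-type mitotic cyclin, read 6.80 in wild type 1, then 5.46, 5.80 and 6.92 in knockouts 1, 2 and 3, a knockout mean of 6.06 ± 0.76 (SD, n = 3). Cdk1, the catalytic partner of the mitotic cyclins, read 6.01, 5.15, 5.54 and 6.22. For both, as for Ccna2, knockout 3 lay above wild type 1 by 0.07 to 0.21 and the others well below it.

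Genes of this group share promoter elements that were not used to choose them. The CHR (cell cycle genes homology region) is the element through which the DREAM and MuvB complexes repress late cell cycle genes in resting cells and B-Myb and FoxM1 are brought to them in dividing cells, and CCAAT boxes bind NF-Y. RefSeq promoter windows (GRCm38.p6, 250 bases before to 50 after the start, first window of each gene) were searched on both strands for TTTGAA, the CHR hexamer, and for CCAAT. Neither motif contains the other, though matches may share an end base. Of the 37 members 32 had a window. Windows of Ccna2, Aurkb, Kif20a, Tpx2 and Dlgap5 were not matched. TTTGAA occurred in 24 of the 32 windows, or 75.0%, against 18.1% of 27025 genes, and CCAAT in 23, or 71.9%, against 37.9%. Both occurred in 20 members (62.5%), against 7.12% of genes. TTTGAA lay from 60 bases before to 50 after the start in 21 members (65.6%), against 5.46% of genes.

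Shown are windows of the members with the widest knockout range that hold TTTGAA clear of the annotated transcripts (Mki67, Top2a, Ccnb2 and Kif11), then Cdk1, and Mad2l1 as a member whose window holds neither motif. Cdk1 and Mad2l1 were picked after their sequences were seen. Each runs 5′ to 3′ on the gene's strand from 200 bases before the start up to the first annotated transcript, with TTTGAA and CCAAT matches, on either strand, in capitals.
Mki67 (chr7:135716451-135716579, minus strand): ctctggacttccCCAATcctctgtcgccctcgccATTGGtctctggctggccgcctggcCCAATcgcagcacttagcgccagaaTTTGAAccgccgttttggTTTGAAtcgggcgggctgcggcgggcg
Top2a (chr11:99024200-99024389, minus strand): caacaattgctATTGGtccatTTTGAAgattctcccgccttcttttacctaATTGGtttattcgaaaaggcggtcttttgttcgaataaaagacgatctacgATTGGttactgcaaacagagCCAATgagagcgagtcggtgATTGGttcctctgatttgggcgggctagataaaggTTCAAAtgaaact
Ccnb2 (chr9:70421555-70421754, minus strand): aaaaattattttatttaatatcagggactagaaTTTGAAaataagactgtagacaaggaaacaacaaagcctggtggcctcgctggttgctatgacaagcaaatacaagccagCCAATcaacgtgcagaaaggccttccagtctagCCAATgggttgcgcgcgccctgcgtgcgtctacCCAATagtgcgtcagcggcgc
Kif11 (chr19:37376182-37376381, plus strand): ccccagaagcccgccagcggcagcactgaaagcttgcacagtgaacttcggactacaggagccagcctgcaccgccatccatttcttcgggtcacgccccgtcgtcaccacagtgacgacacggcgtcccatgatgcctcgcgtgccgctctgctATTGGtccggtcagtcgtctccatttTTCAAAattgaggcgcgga
Cdk1 (chr10:69352913-69353112, minus strand): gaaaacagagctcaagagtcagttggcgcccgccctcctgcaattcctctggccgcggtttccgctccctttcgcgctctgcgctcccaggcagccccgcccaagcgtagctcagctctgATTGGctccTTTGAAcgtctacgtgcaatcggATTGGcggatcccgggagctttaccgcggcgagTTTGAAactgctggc
Mad2l1 (chr6:66535021-66535220, plus strand): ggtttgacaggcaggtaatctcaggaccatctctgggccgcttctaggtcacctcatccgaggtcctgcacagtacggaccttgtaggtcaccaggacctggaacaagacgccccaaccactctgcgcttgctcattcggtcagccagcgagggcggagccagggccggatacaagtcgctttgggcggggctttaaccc

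Mki67 shows 2 TTTGAA hexamers and 3 CCAAT matches, and in Top2a one hexamer lies on the other strand, 23 bases before the start. In Cdk1 the hexamers lie 71 and 15 bases before the start, each downstream of an inverted CCAAT box. The Ccnb2 hexamer shown lies 167 bases before the start, and its window holds another past the start. Neither the presence nor the absence of a match shows binding. Of the 20 members that held both motifs, all but Cenpa and Cenpf had wild type 1 and knockout 3 above knockouts 1 and 2. Mad2l1, Melk, Nuf2, Nusap1 and Birc5 held neither motif in this window and had that order too. It was held by 33 of the 35 members tested, and a link between motifs and array order was not tested.

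In the other lists of the cell cycle TTTGAA occurred in 55.6% of 54 windows of other mitosis genes, in 12.9% of 31 windows of DNA replication genes and in 9.09% of 11 windows of D-type and E-type cyclins, their kinases and inhibitors. CCAAT occurred in 74.1%, 58.1% and 27.3% of them. The 15 windows of transcriptional regulators held TTTGAA in 5 and CCAAT in 7, and the 15 of the anaphase-promoting complex held them in 3 and 6. Of all genes 18.1% held TTTGAA and 37.9% held CCAAT. These shares are descriptions of the reference sequence and were not tested.

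**Figure D3:**
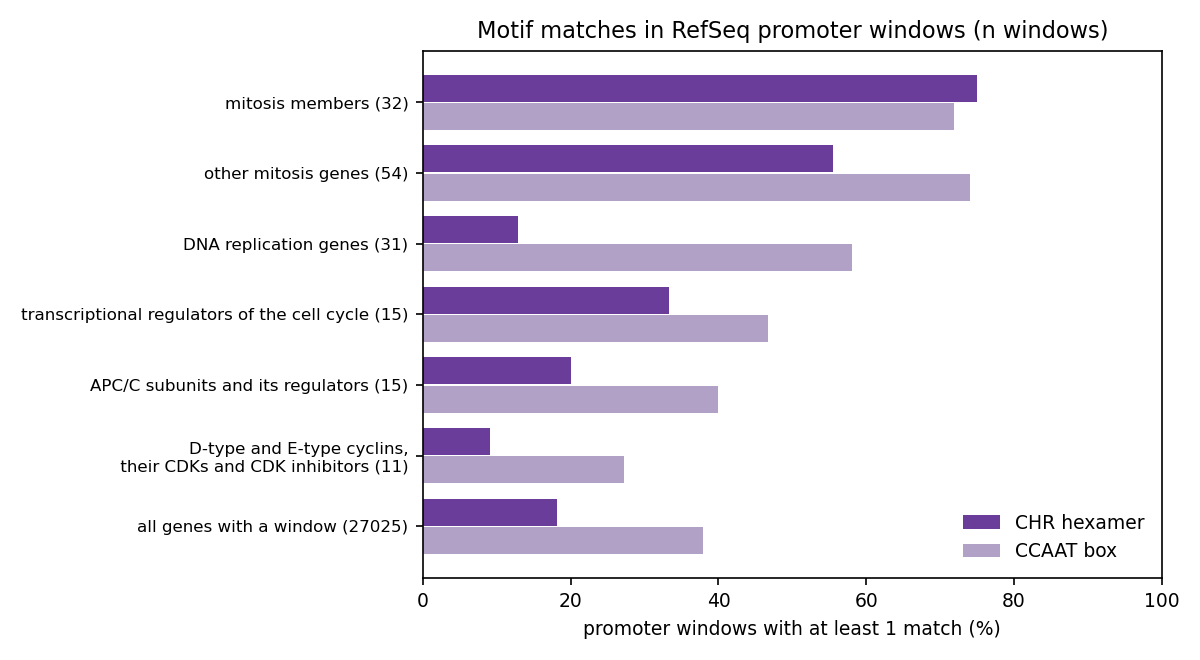
Share of RefSeq promoter windows (x axis, %) with at least 1 match to the CHR hexamer (dark bars) or the CCAAT box (light bars), for each gene list and for all genes, with the number of windows in brackets. The CHR hexamer was in 75.0% of windows of the mitosis members and in 18.1% of all windows.

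Among the mitotic kinases, Plk1 came closest to a difference between genotypes. Plk1, the polo-like kinase of centrosome maturation and mitotic exit, read 7.18 in wild type 1, then 5.57, 5.94 and 6.78 in knockouts 1, 2 and 3, so that all knockout hearts read lower. The fit gave -1.08 (SE 0.42) as its log2 fold change, with a limma adjusted p = 0.844 and a knockout mean 2.12-fold below wild type. Melk, a kinase of dividing and progenitor cells, read 6.24, 5.53 and 5.29 on the first 3 arrays and lay 0.24 below wild type 1 in knockout 3, which gave -0.63 (SE 0.28) as the log2 fold change, with a limma adjusted p = 0.899. Aurka, the Aurora kinase of spindle poles, read 6.16, 5.26, 5.38 and 6.07. Here too every knockout array lay below wild type 1, by 0.09 only in knockout 3. Aurkb, the Aurora kinase of the chromosomal passenger complex, read 6.64, 5.97, 5.91 and 6.76, with knockout 3 above wild type 1.

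The spindle checkpoint genes followed the arrays, with Cdc20 least of all. Bub1b encodes BubR1, the checkpoint protein that binds Cdc20, and read 6.09 in wild type 1, then 4.64, 4.76 and 6.05 in knockouts 1, 2 and 3. Mad2l1, the checkpoint inhibitor of Cdc20, read 7.04, 5.66, 6.57 and 7.12, with knockout 2 nearer to wild type 1 than to knockout 1. Ttk, the checkpoint kinase Mps1, read 4.92, 4.19, 4.33 and 5.07. Bub1, the kinase that recruits the checkpoint proteins to kinetochores, was dim at 4.33, 3.09, 3.19 and 4.42 and showed the same order. Cdc20, the activator of the anaphase-promoting complex and target of the checkpoint, read 6.26, 5.82, 6.08 and 6.78. Its knockout mean of 6.23 ± 0.50 (SD, n = 3) was 0.03 below wild type 1, with knockout 3 above it by 0.52 and knockouts 1 and 2 at -0.44 and -0.18. The sign of this difference is not settled, since it was 0.17 without knockout 1 and 0.04 without knockout 2.

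The kinetochore and centromere genes were the most mixed group. Nuf2, Ndc80 and Spc25 encode subunits of the Ndc80 complex, which grips spindle microtubules. Nuf2 read 5.75 in wild type 1, then 4.17, 4.32 and 5.74 in knockouts 1, 2 and 3, and Spc25 read 6.52, 5.33, 5.12 and 6.49. In both, wild type 1 and knockout 3 were nearly equal. Ndc80 itself read 5.66, 5.23, 5.18 and 5.80, the same order over a range of 0.62 between knockout hearts, against 1.57 for Nuf2. Cenpe, the kinesin that carries chromosomes to the spindle equator, read 5.01, 4.23, 4.10 and 4.89.

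Cenpa and Cenpf departed from the rest. Cenpa, the histone H3 variant that marks centromeres, read 8.40 in wild type 1, then 8.87, 9.10 and 8.83 in knockouts 1, 2 and 3, higher in all of them. At 0.53 (SE 0.19) on the log2 scale it ranked first by p among members and did not pass the threshold (limma adjusted p = 0.790). Whether the probes of this probe set are specific to Cenpa was not analysed here. Its knockout SD of 0.15 was close to the 0.16 median of all genes. Cenpf, a large kinetochore and nuclear matrix protein, read 5.20, 5.69, 5.04 and 5.78, so that knockout 1 was near knockout 3 and knockout 2 was lowest. Of the 6 genes of the group 4 had negative and 2 positive fold changes (8238 and 8470 of all 16708 genes). A range of at least 1 between knockout hearts was spanned by 2 (background 1.87%).

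All 8 spindle motor and assembly genes had negative fold changes, as did 8238 of all 16708 genes. In 4 of the 8, all knockout arrays lay below wild type 1 (background 24.2%). Tpx2, the activator of Aurora A on spindle microtubules, read 6.81 in wild type 1, then 5.25, 5.57 and 6.99 in knockouts 1, 2 and 3. Kif11, the kinesin Eg5 that pushes spindle poles apart, read 5.61, 4.16, 4.65 and 5.62. In these genes knockout 3 and wild type 1 differed by at most 0.18 and knockout 1 was the lowest array. Kif2c, the microtubule-depolymerising kinesin MCAK, read 6.01, 4.55, 4.97 and 5.65, lower in every knockout heart, with -0.95 (SE 0.38) as the log2 fold change and a limma adjusted p = 0.852. Dlgap5, a spindle-stabilising protein also called HURP, had the same order at 6.11, 5.02, 5.12 and 5.92. Nusap1, a microtubule-bundling protein, read 5.24, 4.19, 4.46 and 5.61, and Aspm, a spindle-pole protein, read 5.50, 4.86, 4.93 and 5.81. These last members read higher in knockout 3 than in wild type 1, by 0.37 and 0.31. Kif4, a chromosome-bound kinesin, and Kif15, which backs up Kif11, had knockout ranges of 0.98 and 0.79.

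The cytokinesis genes had a median range of 1.64 between knockout hearts, and in 5 of 6 the range was at least 1 (background 1.87%). Anln, anillin of the contractile ring, read 6.78 in wild type 1, then 4.96, 5.57 and 6.80 in knockouts 1, 2 and 3. Kif23, a subunit of the centralspindlin complex, read 6.83, 5.38, 5.85 and 6.89. Prc1, which bundles the central spindle, read 6.48, 4.62, 5.39 and 6.47, and Ect2, the exchange factor that activates RhoA at the cleavage furrow, read 6.36, 4.51, 5.38 and 6.28. In these members wild type 1 and knockout 3 lay within 0.08 of each other and knockout 1 lay lowest, 1.45 to 1.86 below wild type 1. Kif20a, the kinesin that moves the passenger complex to the midzone, read 6.25 on both wild type 1 and knockout 3, and 5.22 and 5.56 on the others. Birc5, the passenger protein survivin, read 5.62, 4.91, 5.08 and 5.75. In no gene of the group did knockout 1 or 2 reach the wild type level.

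The condensin genes, whose products compact mitotic chromosomes, differed from each other in knockout 3. Ncapg read 5.26 in wild type 1, then 3.94, 4.29 and 4.99 in knockouts 1, 2 and 3, giving -0.85 (SE 0.37) as the log2 fold change, with a limma adjusted p = 0.895. Ncapd2 read 7.27, 6.91, 6.71 and 7.53, above wild type 1 in knockout 3. Plk1, Kif2c, Ncapg and Melk were the members furthest below wild type 1 in knockout 3, by -0.40, -0.36, -0.27 and -0.24. Cenpf, Cdc20 and Cenpa were the furthest above it, by 0.58, 0.52 and 0.43.

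Other genes of the pathway gave 0 limma calls as well, and their order of arrays differed by list. Of 58 other mitosis genes tested (63 of 66 matched), 48 had wild type 1 and knockout 3 above both other arrays (background 21.5%). At an unadjusted p under 0.05, 6 were lower (background 3.87%) and 0 higher (background 1.72%), and these backgrounds hold for each list that follows. The median differences of the list from wild type were -0.68, -0.58 and 0.04 in knockouts 1, 2 and 3. Racgap1, the partner of Kif23 in centralspindlin, read 6.69 in wild type 1, then 5.35, 5.73 and 6.81 in knockouts 1, 2 and 3, and Cep55, an abscission protein, 5.22, 4.02, 4.58 and 5.49. Of 38 DNA replication genes 29 had that order, with 3 lower and 0 higher at an unadjusted p under 0.05. Their medians were -0.61, -0.52 and -0.14, and 25 of them lay below wild type 1 on all knockout arrays (65.8%, background 24.2%), against 14 of 35 mitosis members. The difference between these lists was not tested. Rrm2, the S-phase subunit of ribonucleotide reductase, read 6.70, 5.25, 5.68 and 6.83, whereas Prim2, the large primase subunit, read 6.41, 5.59, 5.80 and 5.82, low in knockout 3 too.

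Among 20 transcriptional regulators of the cell cycle 8 had the order of the mitosis members, with 1 lower and 1 higher at an unadjusted p under 0.05 and medians of -0.29, -0.16 and -0.13. Foxm1, the activator of late cell cycle genes, had the widest knockout range of them and read 5.89 in wild type 1, then 4.98, 4.91 and 5.93 in knockouts 1, 2 and 3. E2f8, a repressor of E2F targets, read 6.24, 5.53, 5.68 and 6.38. E2f4, a subunit of the DREAM complex, read 7.89 and then 7.47, 7.46 and 7.42, lower by nearly the same amount in each knockout heart. Tfdp2 read 8.51 and then 9.34, 9.22 and 8.94, higher in each knockout heart. Of these genes Foxm1 and E2f8 stood in the order of the mitosis genes. The 16 anaphase-promoting complex genes had that order in 2 and medians of -0.07, -0.02 and -0.10, with 0 members past an unadjusted p under 0.05. Fbxo5, the Emi1 inhibitor of that complex, was the one gene of the list with a range of at least 1, at 5.65, 4.49, 5.02 and 5.74. The 14 D-type and E-type cyclins, their kinases and inhibitors had that order in 8 and medians of -0.13, -0.07 and 0.13, with 1 lower and 0 higher at an unadjusted p under 0.05, and none spanned that range. In the regulator, anaphase-promoting complex and D and E cyclin lists, a count of 0 or 1 gene a direction at that p is near the background.

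**Figure D4:**
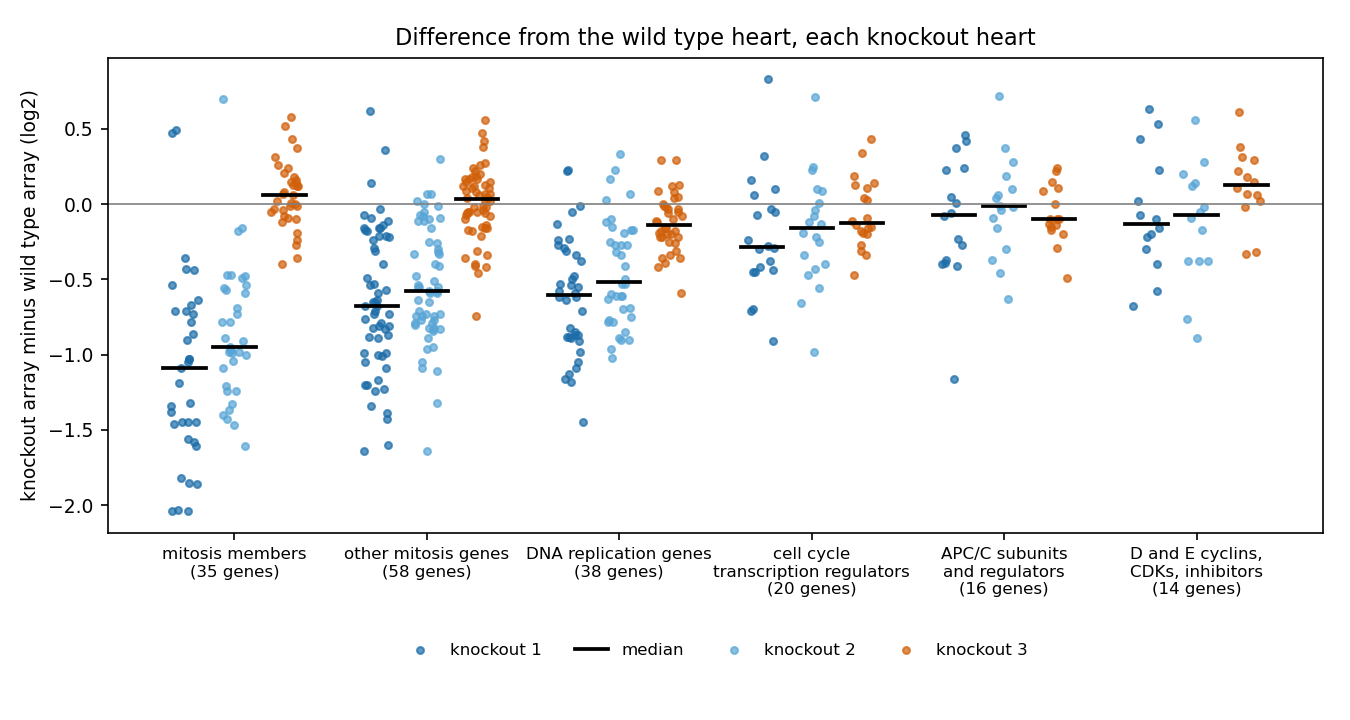
Difference of each knockout array from the wild type array (y axis, log2) for the genes tested in 6 lists, 1 point a gene, with black bars at the medians. The mitosis members lie at medians of -1.09 and -0.95 in knockouts 1 and 2 and at 0.06 in knockout 3, and the D and E cyclin list lies near 0 in all.

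Some marker genes, most often those of macrophages, fibroblasts and neutrophils, had the order of the arrays seen in the mitosis genes, which 21.5% of all genes held. All knockout arrays lay below wild type 1 in 24.2% of all genes and above it in 24.2%. Of 10 activated fibroblast markers, 7 had wild type 1 and knockout 3 above both other arrays. On every knockout array 4 lay below and 1 above wild type 1. The log2 of the summed linear levels of the list was 13.0 in wild type 1 and 11.4 to 13.2 in the knockout hearts. Such a sum, used for each list below, is set mostly by the brightest genes of the list. In knockout 3, 6 of the activated fibroblast markers read above wild type 1 and 4 below it, with differences from -1.87 to 1.22. Postn, periostin, was among those above and read 10.66 in wild type 1, then 8.85, 9.92 and 11.69 in knockouts 1, 2 and 3. Of 10 general fibroblast markers 6 had that order, and their sum was 13.6 in wild type 1 and 13.1 to 14.1 in the knockout hearts. Of 11 macrophage markers 10 had it, but 10 also lay below wild type 1 on all knockout arrays, with a sum of 12.2 against 10.9 to 11.8. Their median difference in knockout 3 was -0.59, where that of the mitosis members was 0.06.

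In the remaining marker lists that order was seen in 2 of 10 endothelial, 3 of 10 mural and 1 of 10 cardiomyocyte markers, with sums of 12.2, 13.1 and 16.3 in wild type 1 and 12.3 to 12.7, 13.0 to 13.2 and 16.3 to 16.4 in the knockout hearts. Of 9 T and B cell markers 4 had it, with Cd79a and Ms4a1 dim, and the sum was 8.14 against 8.09 to 8.29. Of 10 neutrophil markers 6 had it, dim genes included, with Cxcr2, Ly6g and Ngp dim, and the sum was 8.12 against 7.76 to 8.08. Of 5 erythroid markers 2 had it, at 8.55 against 8.36 to 8.73. No marker of the fibroblast, macrophage, endothelial, mural, cardiomyocyte or erythroid lists that was matched fell under the filter. The part of these cell types in the levels of the mitosis genes was not tested.

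**Figure D5:**
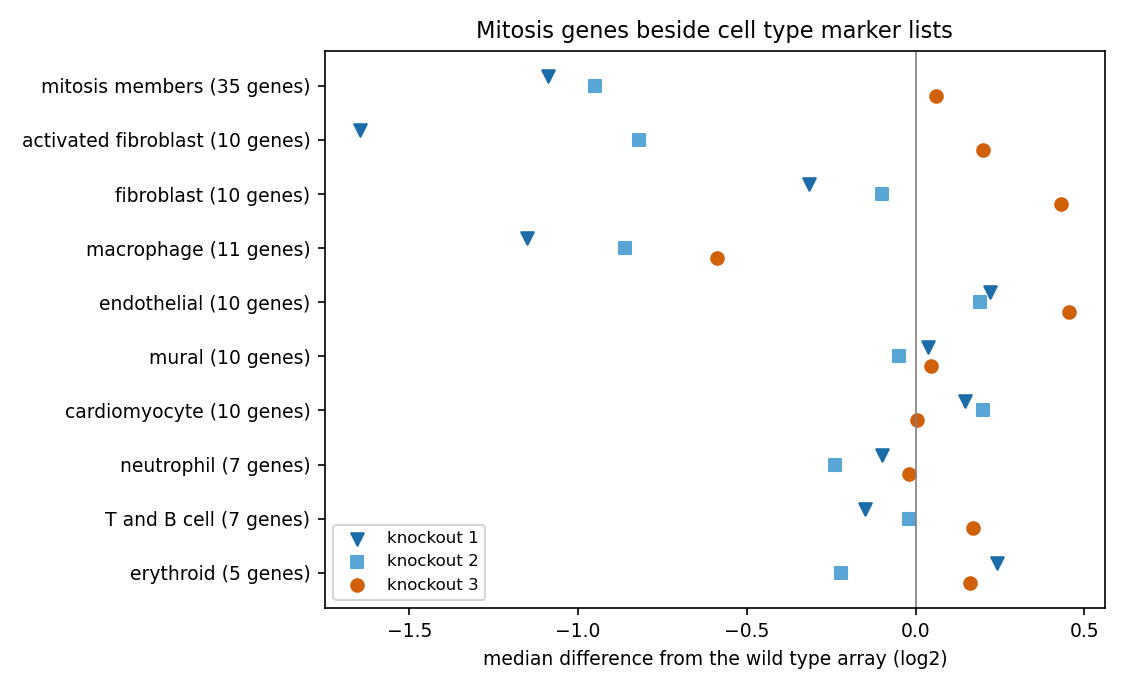
Median difference from the wild type array (x axis, log2) in each knockout heart, for the mitosis members and for marker lists of heart cell types. Knockout 3 lies at 0.06 for the mitosis members, at 0.20 for activated fibroblast markers and at -0.59 for macrophage markers.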

How the data were processed

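Total RNA from 4 TAC hearts (1 wild type, 3 MAFbx knockout) was labelled with biotin and measured on Affymetrix Mouse Gene ST arrays. The deposited log2 values were made by the authors with RMA in Affymetrix Expression Console, per the submitters' processing notes. Their versions are not named there. This procedure corrects background, equalises the array distributions and compresses differences between dim genes. The value table was used as deposited, without scanner intensities. Array quartiles were nearly equal, genes were not centred, and Fbxo32 was lower in the knockout arrays. Of 35556 probe sets 21789 had 1 gene symbol in the platform annotation, 1621 had several and 12146 were unlisted.

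Genes were filtered at the 25th percentile of the means of all probe sets and fitted with limma 3.58.1 in R 4.3.3 (lmFit, eBayes, 2 residual and 5.05 prior degrees of freedom, Benjamini-Hochberg over 16708 genes). The fit was tested on simulated data. The number of arrays limits the precision. Members and lists were chosen with earlier results of these data known. By the rule, per role the 2 members of highest mean and the 2 of widest knockout range, at least, have all values given, and fit statistics are given for the 5 members of smallest p and the 3 of widest knockout range. In other lists the 3 genes of smallest p and the 2 of widest range may be named. Myh6, Tnnt2 and Postn were named outside the rule, with their values known. Sequences are RefSeq's (GRCm38.p6). Alternatives changed the normalization, filter, probe set rule, variance model, threshold and arrays.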

Additional observations from a re-analysis of the deposited data

How the results depend on the processing

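No paired analysis was possible because the wild type group has 1 array. Leaving out each knockout array in turn gave 14 to 33 members with all remaining knockout arrays below wild type, 0 to 20 members with a knockout range of at least 1, a median knockout SD of 0.24 to 0.76, a median log2 fold change of -0.93 to -0.48 and 0 members called; the low end of the SD and range and the high end of the count came without knockout 3. At an unadjusted p under 0.05, 3 members passed in place of 0. With the other normalizations, filters (one of them, at the 25th percentile of the probe sets with 1 symbol, chosen after seeing the data), probe set rules and variance models these values kept their direction and stayed within 1.5 times or within the spread of the arrays. Top2a had no value under the mean or the lowest of its probe sets, which fell below the filter, and under one or both stricter filters Ncapg, Cenpe, Kif4, Ttk, Nuf2 and Nusap1 had none. Of the 35 members tested, only Cdc20 had a fold change that turned its sign under an alternative run: its log2 fold change was 0.17 without knockout 1, 0.04 without knockout 2 and -0.31 without knockout 3, against -0.03.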
